A study of Sus scrofa with 18 samples.

Results

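HOX genes encode homeodomain transcription factors and lie in 4 clusters, HOXA, HOXB, HOXC and HOXD. This account covers the histone marks across these clusters in the muscle wall of the pig uterus. The members were RefSeq genes of the Sscrofa11.1 build whose symbol is HOXA, HOXB, HOXC or HOXD followed by a number, and 35 of the 28210 genes on the named chromosomes are described. HOXA held 10 of them (HOXA2 to HOXA7, HOXA9, HOXA10, HOXA11 and HOXA13), HOXB held 8 (HOXB1, HOXB2, HOXB3, HOXB5 to HOXB8 and HOXB13), HOXC held 9 (HOXC4, HOXC5, HOXC6 and HOXC8 to HOXC13) and HOXD held 8 (HOXD1, HOXD3 and HOXD8 to HOXD13). HOXB4, HOXB9 and HOXD4 were not in the gene table used here and were not analysed.

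The order of HOX genes along the chromosome matches the order of their domains along the head-to-tail axis of the embryo, so that low-numbered genes are called anterior and high-numbered genes posterior. Genes of the same number in different clusters are paralogs, copies that derive from one ancestral gene. In the female tract the posterior HOXA genes are known for patterning: HOXA9 marks the future oviduct, HOXA10 the uterus, HOXA11 the uterus and cervix, and HOXA13 the cervix and vagina. Trimethylation of histone H3 at lysine 4 (H3K4me3) is typical of active or poised promoters, and acetylation at lysine 27 (H3K27ac) of active promoters and enhancers.

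Both marks were profiled by Cleavage Under Targets and Tagmentation (CUT&Tag), in which an antibody guides a transposase that cuts and tags the DNA around a mark. The tissue came from the mesometrial side of the uterus of Yorkshire gilts. GD15M_CM was the inner circular muscle and GD15M_LM the outer longitudinal muscle on day 15 of pregnancy, and CD15M_CM was the circular muscle on day 15 of the estrous cycle, with n = 2 gilts in each group. Longitudinal muscle of the estrous cycle was not analysed here, so that the muscle layers were compared in pregnancy only and pregnancy with the cycle in circular muscle only.

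The 18 libraries (H3K4me3, H3K27ac and an IgG control for each gilt of a group) gave 6 peak lists, because the 2 gilts of a group were pooled before peaks were called against IgG. Whether both muscle layers of pregnancy came from the same 2 gilts is not given for these libraries. Values of single gilts were not analysed here, so that no value has an error between gilts, no difference between lists was tested, and the comparisons are descriptions of 6 pooled lists. The read depth behind a peak is not in the lists. For GD15M_CM, GD15M_LM and CD15M_CM the lists of H3K4me3 peaks had 33599, 31910 and 36331 entries, and those of H3K27ac peaks 79877, 57010 and 82037. Where 3 values follow each other without group names, they keep this order. All 10 smooth muscle marker genes, among them MYH11, ACTG2 and DES, had a peak in all 6 lists. A peak alone does not identify the tissue, since 50.1% of all genes also had one in all 6 lists. All 6 uterine epithelium markers had H3K4me3 in each group as well.

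Each cluster was examined with at least 10 kb on both sides of its HOX genes. The windows were chr18:45363340-45490306 for HOXA, chr12:24774953-24960661 for HOXB, chr5:19141096-19278267 for HOXC and chr15:81883997-82000026 for HOXD. Cover is the share of a window or of a gene body that lies under peaks. The percentile of a gene is the rank, within its own list, of the fold enrichment over IgG of the strongest peak that overlaps the gene body by at least 1 base, and it is 0 where no peak does. The annotated body of HOXA3 spans HOXA4, HOXA5 and HOXA6, and that of HOXD9 spans HOXD10, so that these genes share peaks and their values are not independent. HOX genes were also short, with a median length of 4112 bp against 14828 bp for all genes, which bears on any share of a gene body covered.

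Peaks covered the HOX windows far more densely than the chromosomes around them. H3K4me3 peaks covered 39.0% of the 4 windows in GD15M_CM, 35.8% in GD15M_LM and 44.5% in CD15M_CM, beside 2.46%, 2.68% and 2.89% of the 4 chromosomes. H3K27ac peaks covered 30.4%, 20.2% and 31.8% of the windows, beside 3.42%, 2.75% and 3.83% of the chromosomes. The windows held between 63 and 72 H3K4me3 peaks in a list. Their median lengths were 1288.5, 1487 and 1709 bp for GD15M_CM, GD15M_LM and CD15M_CM. In the whole lists the median H3K4me3 peak measured 760, 1007 and 800 bp. Peaks in the windows were thus longer, but how far their length and their number each made up the cover was not computed. Of the peaks in the windows, 17 to 21 H3K4me3 peaks and 36 to 38 H3K27ac peaks per list overlapped no HOX gene.

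**Figure D1:**
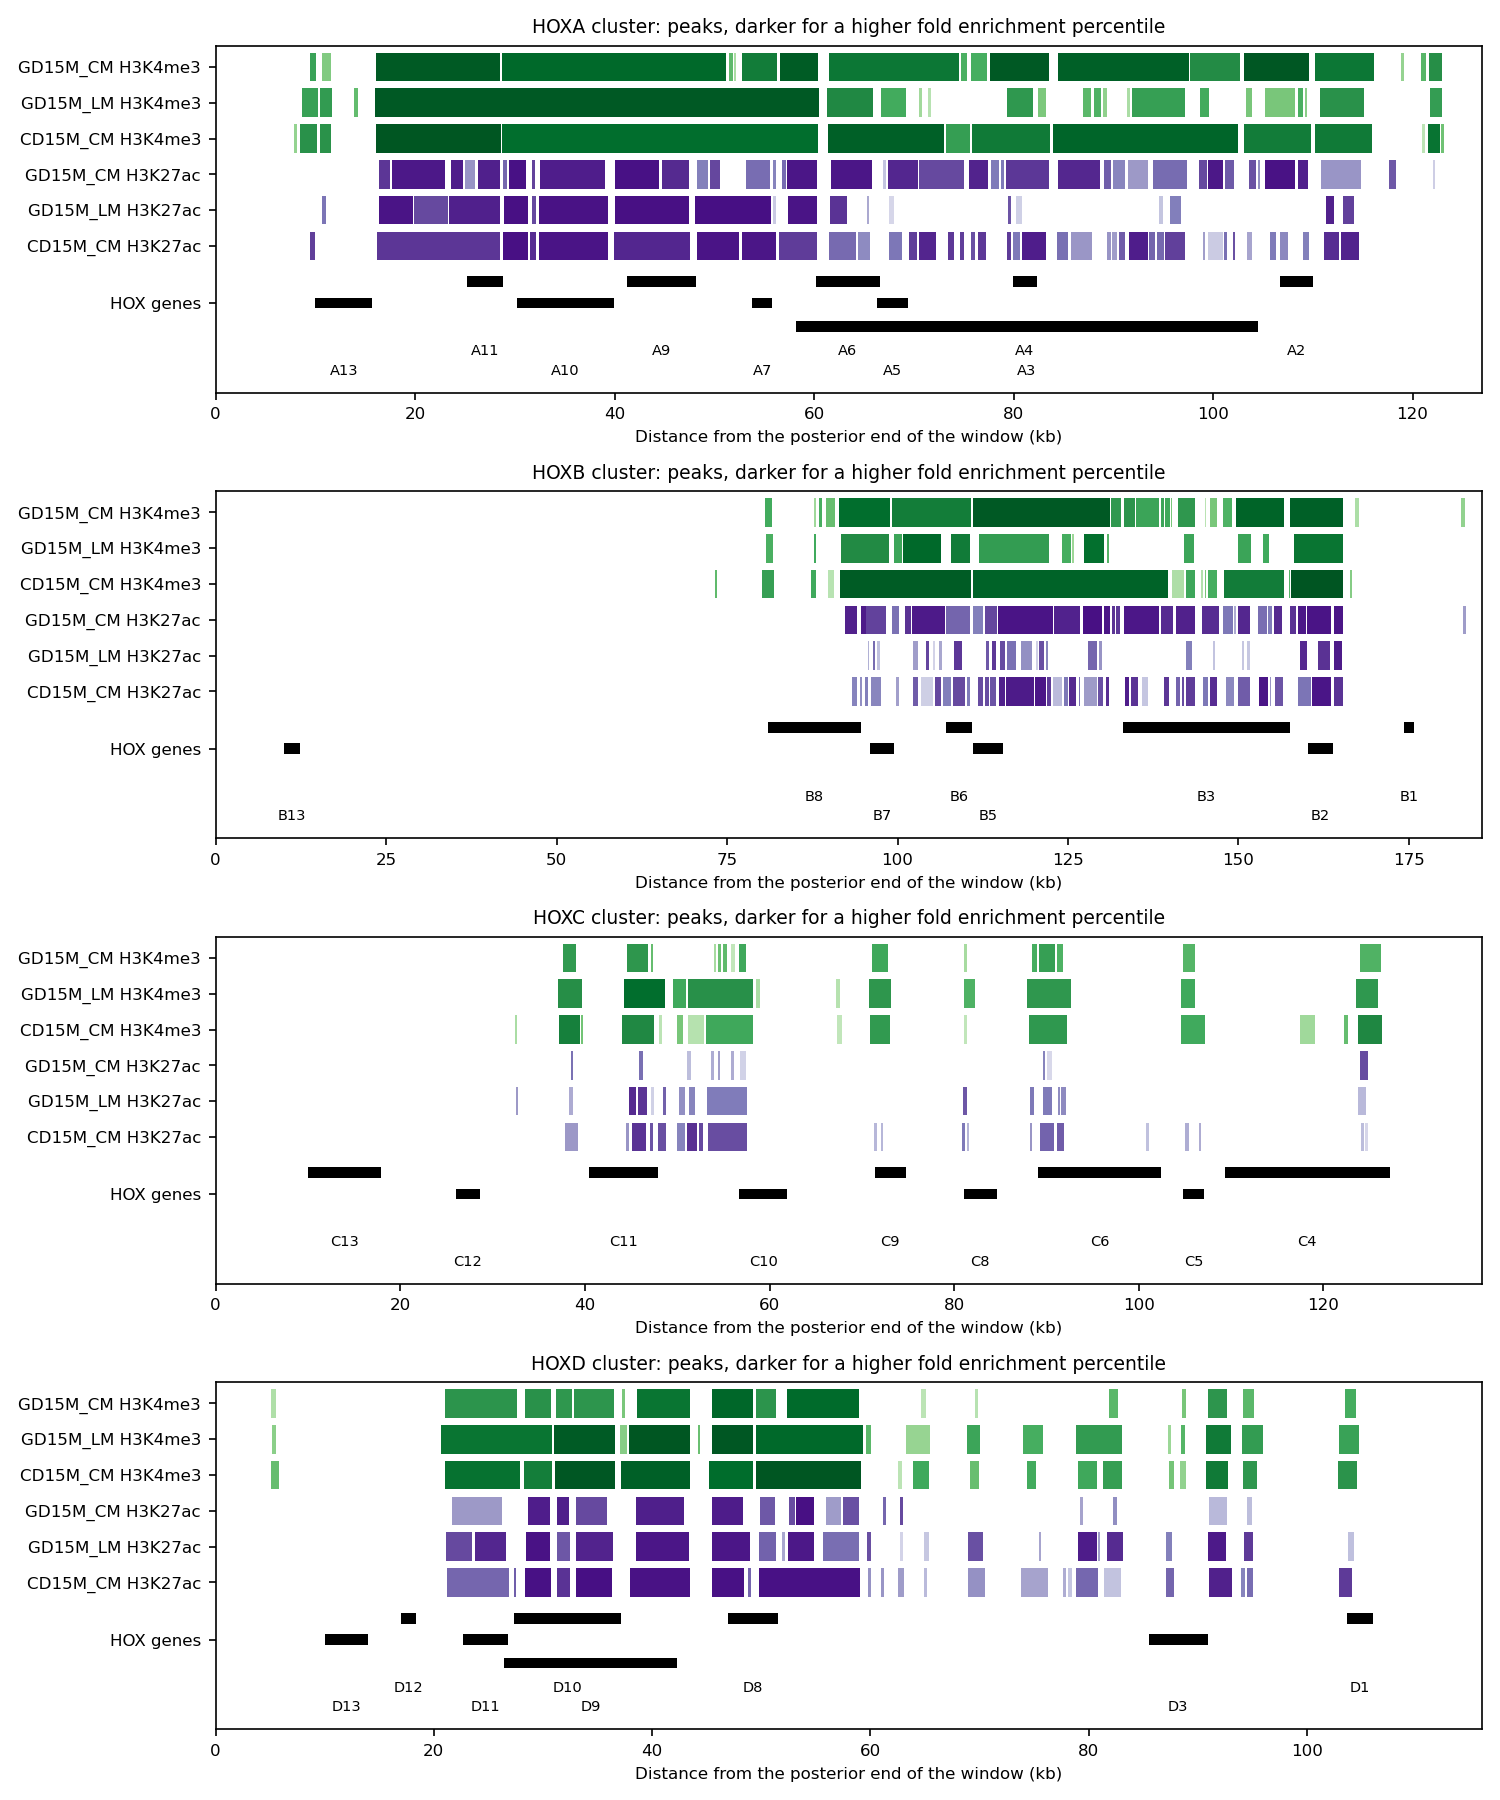
Peaks in the 4 HOX windows, with distance from the posterior end of the window in kb on the horizontal axis and 1 row for each of the 6 lists above the HOX gene bodies (black bars, with HOXA3 and HOXD9 on the lowest row). Green bars are H3K4me3 peaks and purple bars H3K27ac peaks, darker for a higher percentile; the posterior ends of HOXB, HOXC and HOXD hold few or no peaks, and the anterior part of HOXA is broken up in GD15M_LM.

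H3K27ac lay almost wholly inside H3K4me3 in the clusters. Of the H3K27ac bases in the 4 windows, 96.7% in GD15M_CM, 98.6% in GD15M_LM and 95.9% in CD15M_CM were also under an H3K4me3 peak. Over all chromosomes that share was 47.1%, 57.0% and 46.6%. In the other direction the clusters were nearer to the rest of the genome, with 75.4%, 55.6% and 68.6% of the H3K4me3 bases of the windows also under H3K27ac, beside 67.3%, 57.9% and 63.6% over all chromosomes. HOXC stood lowest among the clusters in GD15M_CM, where 25% of its H3K4me3 bases were also under H3K27ac, while HOXA reached 79.4%, HOXB 82.7% and HOXD 70.7%.

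A peak of H3K4me3 lay on 29 of the 35 HOX genes in each of the 3 groups, and the genes without one were the same 6 in every list of both marks: HOXB1, HOXB13, HOXC12, HOXC13, HOXD12 and HOXD13. As a share, 82.9% of HOX genes carried H3K4me3 (Wilson 95% interval 67.3% to 91.9%, which covers counting of genes only), beside 57.1% of all genes in GD15M_CM, 58.2% in GD15M_LM and 58.9% in CD15M_CM. H3K27ac was on 23 HOX genes in GD15M_CM, on 25 in GD15M_LM and on 29 in CD15M_CM, and no HOX gene had H3K27ac without H3K4me3. As shares these were 65.7% (Wilson 95% interval 49.2% to 79.2%), 71.4% (54.9% to 83.7%) and 82.9% (67.3% to 91.9%). Among all genes 58.7%, 57.4% and 60.7% had H3K27ac, so that the intervals of GD15M_CM and GD15M_LM held the background. In all, 21 HOX genes had a peak in all 6 lists, 6 had none in any list and 8 had a peak in some lists. Among all genes, 50.1% had a peak in all 6 lists and 32.9% in none.

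The median percentile over the 35 HOX genes for H3K4me3 was 67.7 in GD15M_CM, 64.8 in GD15M_LM and 81.1 in CD15M_CM, beside 58.8, 58.0 and 63.8 over all genes. For H3K27ac it was 63.6, 54.6 and 73.1, beside 48.7, 42.1 and 52.0. Once genes without a peak were left out, the HOX medians lay on either side of the background. For H3K4me3 they were 83.0, 71.5 and 88.6 against 80.3, 78.9 and 81.3, and for H3K27ac 92.6, 82.5 and 80.2 against 86.2, 82.2 and 84.2. Cover separated HOX genes from other genes more than rank did. At least 50% of the body was under H3K4me3 in 19, 18 and 19 HOX genes, or 54.3%, 51.4% and 54.3% of them, beside 7.79%, 8.31% and 9.07% of all genes.

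The posterior end of HOXA gave a sharp edge in all 6 lists. HOXA9, HOXA10 and HOXA11 lay almost wholly under H3K4me3, and the mark thinned out within less than 1 kb of HOXA13. HOXA9 and HOXA10 were covered over 100% of their bodies by H3K4me3 in each group, and HOXA11 over 95.6% in GD15M_CM, 100% in GD15M_LM and 95.5% in CD15M_CM. HOXA13 was covered over 17.7%, 31.0% and 22.6%. The outermost base under H3K4me3 between HOXA13 and HOXA11 lay 396, 289 and 360 bp from the annotated end of HOXA13. For H3K27ac the same distance was 703, 660 and 518 bp, so that all 6 edges fell within the same stretch of less than 1 kb.

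HOXA13 itself held small peaks of lower rank. Its H3K4me3 percentile was 58.2 in GD15M_CM, 62.2 in GD15M_LM and 67.9 in CD15M_CM, all below the 97.6, 97.7 and 99.1 of HOXA11. The H3K27ac percentile was 0 in GD15M_CM, where no peak overlapped the gene, 56.8 in GD15M_LM and 78.7 in CD15M_CM. The value in CD15M_CM rests on an overlap of 7 bases at the outer side of the gene, and that in GD15M_LM on a peak of 473 bp. HOXA11 and HOXA13 fell on opposite sides of the peak definition only for H3K27ac in GD15M_CM, but on opposite sides of 50% cover in all 6 lists.

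The longest peak of HOXA lay over the uterine genes. In GD15M_LM a single H3K4me3 peak of 44510 bp, at chr18:45379335-45423844, ran from beyond HOXA11 to the margin of HOXA6 and was the longest of the 31910 peaks of its list (rank 1). In GD15M_CM the longest HOXA peak, at chr18:45392062-45414470, measured 22409 bp, ranked 3 by length in its list and touched HOXA9, HOXA10 and HOXA11. In CD15M_CM it measured 31686 bp, at chr18:45392074-45423759, and ranked 2. The stretch from HOXA7 to HOXA11 (30.6 kb, chosen after its values were seen) was covered over 95.7% in GD15M_CM, 100% in GD15M_LM and 99.5% in CD15M_CM, in 5, 1 and 2 peaks. The longer peak in longitudinal muscle thus came with fewer gaps and not with a wider territory over these genes.

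H3K27ac over the same stretch was broader in GD15M_LM and CD15M_CM than in GD15M_CM. It covered 77.3% in GD15M_CM in 11 peaks, 91.6% in GD15M_LM in 6 peaks and 92.1% in CD15M_CM in 7 peaks. The strongest H3K27ac peak of the cluster in GD15M_LM had a ratio to IgG of 11.5, at percentile 99.9 of its list, measured 7574 bp and touched HOXA7 and HOXA9. HOXA10, which in adult uterus is known for its part in implantation, had H3K27ac percentiles of 98.8, 99.5 and 99.7 and was the HOX gene of highest mean H3K27ac percentile. HOXA11, known for its part in uterine development, had the highest mean H3K4me3 percentile, with 92.6, 92.1 and 99.7 for H3K27ac. Both genes therefore ranked high in both layers and in both reproductive states.

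The anterior part of HOXA differed between the muscle layers. From HOXA2 to HOXA5 (43.7 kb, chosen after its values were seen) H3K4me3 covered 94.0% in GD15M_CM and 96.3% in CD15M_CM but 44.5% in GD15M_LM. H3K27ac covered 79.8%, 55.4% and 7.03% in the same order, so that both circular muscle lists stood above the longitudinal one. HOXA2, known for patterning the hindbrain and the branchial arches, had an H3K4me3 percentile of 98.6 in GD15M_CM, 50.6 in GD15M_LM and 80.2 in CD15M_CM. No H3K27ac peak overlapped it in GD15M_LM, where the percentile was 0, against 98.4 in GD15M_CM and 51.5 in CD15M_CM. This rests on the limits of the gene body, since with 3 kb added on both sides the H3K27ac percentile in GD15M_CM was 6.54 points above GD15M_LM and 7.04 points above CD15M_CM.

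HOXA4 and HOXA5, central genes of the cluster, behaved alike in cover. HOXA4 was covered over 100%, 84.1% and 100% by H3K4me3 in GD15M_CM, GD15M_LM and CD15M_CM and over 100%, 26.6% and 92.4% by H3K27ac. HOXA5, known for lung development, was covered over 100%, 81.4% and 100% by H3K4me3 and over 76.0%, 19.3% and 43.1% by H3K27ac. Longitudinal muscle was lowest in all 4 of these series. In GD15M_LM the H3K27ac peaks left on both genes were weak, with percentiles of 6.30 for HOXA4 and 2.47 for HOXA5, beside 82.5 and 89.7 in GD15M_CM.

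HOXA3 and HOXA6 had the percentile of peaks that they shared with their neighbours. For H3K4me3 the percentile of HOXA3 was 98.6, 97.7 and 94.4. The value in GD15M_LM is that of the 44510 bp peak, which ends in the posterior part of the HOXA3 model, while cover of the whole model was 92.9%, 48.9% and 94.8%. HOXA7 ranked higher in longitudinal muscle, with 80.1, 97.7 and 88.6 for H3K4me3 and 59.9, 99.9 and 96.6 for H3K27ac. Its body was covered over 100% by H3K4me3 in each group, so that the gene differed in rank and not in cover for that mark. In GD15M_LM the values of HOXA7 came from shared peaks, the one of 44510 bp for H3K4me3 and one of 7574 bp on HOXA9 too for H3K27ac. With 3 kb added on both sides, its H3K27ac difference was -3.29 points for GD15M_CM minus GD15M_LM and -1.35 for GD15M_CM minus CD15M_CM.

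**Figure D2:**
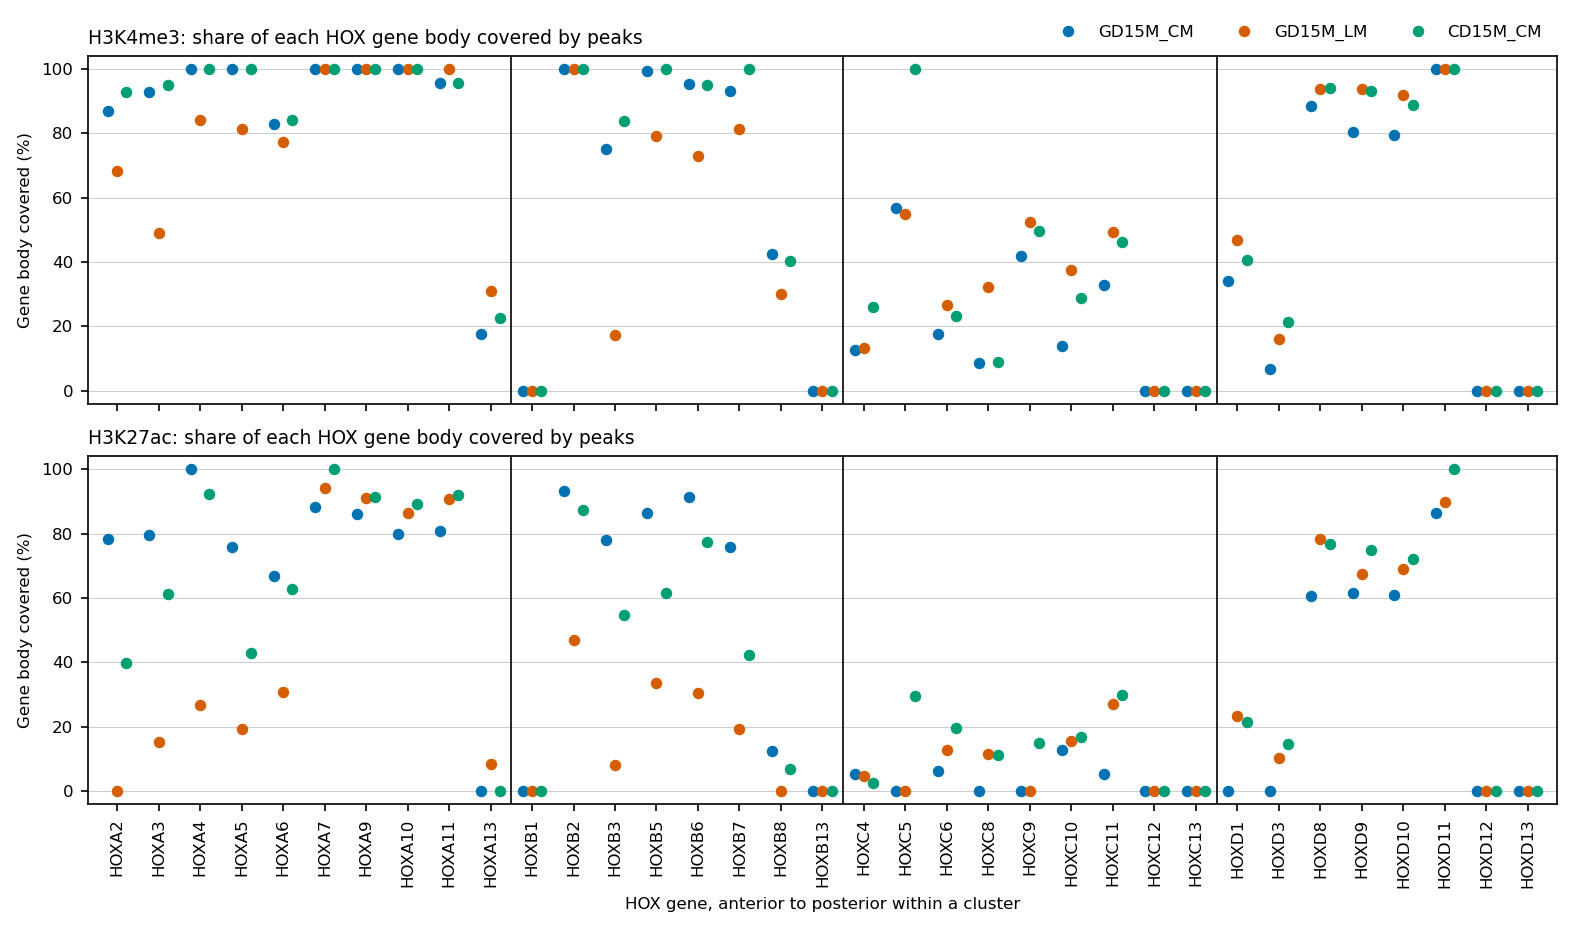
Share of each HOX gene body covered by peaks in percent (vertical axis) for the 35 HOX genes, anterior to posterior within each cluster (horizontal axis), with H3K4me3 above and H3K27ac below and 1 point for each of the 3 groups of pooled gilts. GD15M_LM lies lowest for HOXA2 to HOXA6 and HOXB3 to HOXB8 in both marks, and GD15M_CM lies lowest for HOXD8, HOXD9 and HOXD10.

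HOXB had an edge at each end. HOXB1, known for hindbrain patterning, had no peak in any list, while its neighbour HOXB2 was fully covered by H3K4me3 in each group. The outermost base under H3K27ac between them lay 9.02 kb from HOXB1 in GD15M_CM, 9.04 kb in GD15M_LM and 8.98 kb in CD15M_CM. For H3K4me3 it lay at 6.63, 8.93 and 7.68 kb, where the nearest peaks in GD15M_CM and CD15M_CM were small, of 498 and 261 bp. HOXB2 percentiles for H3K4me3 were 94.5, 84.7 and 99.6, and for H3K27ac 98.1, 84.8 and 97.4.

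At the posterior end of HOXB the marks ended in or near HOXB8, and HOXB13, known for its role in the prostate and the tail, lay beyond a long stretch without peaks. HOXB8 was covered over 42.6% in GD15M_CM, 30.1% in GD15M_LM and 40.4% in CD15M_CM by H3K4me3, and over 12.5%, 0% and 6.73% by H3K27ac. From the last H3K4me3 peak to the end of the window 80.5, 80.7 and 73.2 kb held none. For H3K27ac that stretch measured 92.4, 95.6 and 93.3 kb. It began before HOXB8 in GD15M_LM, where HOXB8 had no H3K27ac peak, and within HOXB8 in both circular muscle lists.

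Between its edges HOXB was more densely covered in circular muscle. The stretch from HOXB2 to HOXB7 (67.9 kb) was not set in advance and leaves out HOXB8. H3K4me3 covered it over 89.5% in GD15M_CM, 54.8% in GD15M_LM and 93.5% in CD15M_CM, and H3K27ac over 83.8%, 24.3% and 62.1%. HOXB3 differed most in cover, with 75.0%, 17.4% and 83.8% for H3K4me3 and 77.9%, 8.25% and 54.7% for H3K27ac. HOXB5 had H3K4me3 percentiles of 97.9, 61.5 and 93.5. The longest HOXB peaks of H3K4me3 reached 20109 bp in GD15M_CM (chr12:24829498-24849606, length rank 5), 10291 bp in GD15M_LM (chr12:24838427-24848717, rank 117) and 28576 bp in CD15M_CM (chr12:24821060-24849635, rank 4). All 3 touched HOXB5, and the one in CD15M_CM also touched HOXB3. H3K27ac in HOXB was cut into short pieces in GD15M_LM, where the longest peak had 1745 bp, against 8033 bp in GD15M_CM and 4072 bp in CD15M_CM.

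HOXB6 did not follow this in rank. It had H3K4me3 percentiles of 79.2 in GD15M_CM, 80.6 in GD15M_LM and 96.3 in CD15M_CM and H3K27ac percentiles of 63.6, 82.5 and 74.7. Its cover by H3K27ac was nevertheless 91.4%, 30.5% and 77.4%, so that fewer bases under a stronger peak were found in longitudinal muscle. HOXB7 had H3K4me3 percentiles of 88.4, 71.5 and 96.3, lowest in longitudinal muscle, and H3K27ac percentiles of 77.8, 60.3 and 48.3, lowest in CD15M_CM.

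HOXC was the least covered cluster. H3K4me3 covered 10.6% of its window in GD15M_CM, 20.8% in GD15M_LM and 20.8% in CD15M_CM, and H3K27ac 3.16%, 8.82% and 11.8%. In HOXA the same shares were 77.2%, 60.8% and 80.1%, and 62.2%, 37.1% and 57.8%. In GD15M_LM, however, HOXB was only little above HOXC, with 23.9% for H3K4me3 and 9.65% for H3K27ac. HOXC12 and HOXC13, of which HOXC13 is known for hair and nail formation, had no peak, and the first 37.6, 37.0 and 32.4 kb of the window held no H3K4me3. HOXC11 marked the posterior limit, with H3K4me3 percentiles of 65.1, 88.6 and 72.7 and H3K27ac percentiles of 58.8, 87.9 and 83.9.

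Inside HOXC, H3K27ac was interrupted in GD15M_CM and GD15M_LM. H3K4me3 in each group, and H3K27ac in CD15M_CM, had a peak on each gene from HOXC4 to HOXC11. For H3K27ac in CD15M_CM, the longest list, this depended on list length. With the H3K27ac lists cut to equal length, HOXC5 and HOXC9 had no peak in CD15M_CM either, and 27 HOX genes kept one there. HOXC5 had no H3K27ac peak in GD15M_CM or GD15M_LM and a percentile of 26.6 in CD15M_CM, and HOXC9 had none in the same 2 lists and a percentile of 20.8 in CD15M_CM. HOXC8 had none in GD15M_CM, against percentiles of 69.0 in GD15M_LM and 55.2 in CD15M_CM. Each of these genes carried H3K4me3 in all 3 groups. HOXC10, expressed in posterior tissues, had H3K27ac percentiles of 5.24, 54.1 and 73.1, and HOXC6 had 49.7, 54.6 and 66.6. HOXC4, the most anterior gene of this cluster, went the other way for H3K27ac, with 73.5 in GD15M_CM, 19.8 in GD15M_LM and 18.0 in CD15M_CM, while for H3K4me3 it had 48, 64.0 and 73.3. Its H3K27ac peaks covered only 5.34%, 4.81% and 2.56% of the gene body. With the stricter peaks the H3K27ac differences of HOXC4 and HOXC10 between GD15M_CM and either other list were 0.

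The longest H3K4me3 peaks of HOXC lay beside and on HOXC10 in GD15M_LM (7081 bp, chr5:19192229-19199309) and CD15M_CM (5046 bp, chr5:19194255-19199300). In GD15M_CM the longest was on HOXC4 and had 2254 bp (chr5:19265089-19267342). The longest H3K27ac peak was on HOXC4 in GD15M_CM, with 954 bp, and on HOXC10 in GD15M_LM and CD15M_CM, with 4318 and 4235 bp. GD15M_CM was thus the list with the shortest longest peak in HOXC for both marks.

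HOXD had its marks over HOXD8 to HOXD11 and an edge before HOXD12. H3K4me3 covered HOXD11 over 100% in each group, and H3K27ac over 86.3% in GD15M_CM, 89.7% in GD15M_LM and 100% in CD15M_CM. HOXD12 and HOXD13, known for limb and genital patterning, had no peak. The outermost base under H3K4me3 lay 2.71, 2.32 and 2.65 kb from HOXD12 and that under H3K27ac 3.36, 2.82 and 2.89 kb, all before the body of HOXD11 began. A small H3K4me3 peak beyond HOXD13 was present in each H3K4me3 list, and EVX2, the gene next to HOXD13, had no peak in any list.

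Among the marked HOXD genes GD15M_CM had the lowest rank throughout. HOXD10 had H3K4me3 percentiles of 67.7 in GD15M_CM, 96.8 in GD15M_LM and 98.3 in CD15M_CM and H3K27ac percentiles of 93.3, 98.6 and 99.96. HOXD11 had 66.4, 84.7 and 86.4 for H3K4me3 and 36.7, 89.7 and 63.0 for H3K27ac. The size of these differences rests on the limits of the gene body. With 3 kb added on both sides, the H3K4me3 difference of HOXD10 was -14.4 points for GD15M_CM minus GD15M_LM and -13.7 for GD15M_CM minus CD15M_CM. The H3K27ac difference of HOXD11 was then -5.33 and -5.74 points in the same order. HOXD8 ranked high in each list, with 91.9, 98.6 and 99.2 for H3K4me3 and 94.1, 96.9 and 99.2 for H3K27ac. The HOXD9 model gave 84.5, 99.0 and 98.3 for H3K4me3, and its H3K27ac percentiles were those of HOXD10, from the same peaks.

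The anterior HOXD genes lie apart from this block. HOXD3 had H3K4me3 percentiles of 34.3 in GD15M_CM, 81.4 in GD15M_LM and 81.1 in CD15M_CM, and HOXD1 had 51.9, 58.6 and 66.6. No H3K27ac peak was on either gene in GD15M_CM. In GD15M_LM the H3K27ac percentile was 51.4 for HOXD3 and 16.0 for HOXD1, and in CD15M_CM 63.6 and 81.0. With 3 kb added on both sides, the H3K4me3 difference of HOXD3 was -16.1 points for GD15M_CM minus GD15M_LM and -15.8 for GD15M_CM minus CD15M_CM. Its H3K27ac difference was then -51.7 and -48.5 points. Their cover was low in each group, at most 46.7% for H3K4me3 and 23.2% for H3K27ac.

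The longest HOXD peaks of H3K4me3 had 6629 bp in GD15M_CM (chr15:81936339-81942967, on no HOX gene), 10135 bp in GD15M_LM (chr15:81904644-81914778, on HOXD9, HOXD10 and HOXD11) and 9613 bp in CD15M_CM (chr15:81933502-81943114, on HOXD8). For H3K27ac they had 4510, 4840 and 9304 bp. Over the HOXD window H3K4me3 covered 32.3%, 45.4% and 41.9%, and H3K27ac 23.7%, 32.1% and 39.3%. Longitudinal muscle had the largest H3K4me3 cover of HOXD and CD15M_CM the largest H3K27ac cover.

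**Figure D3:**
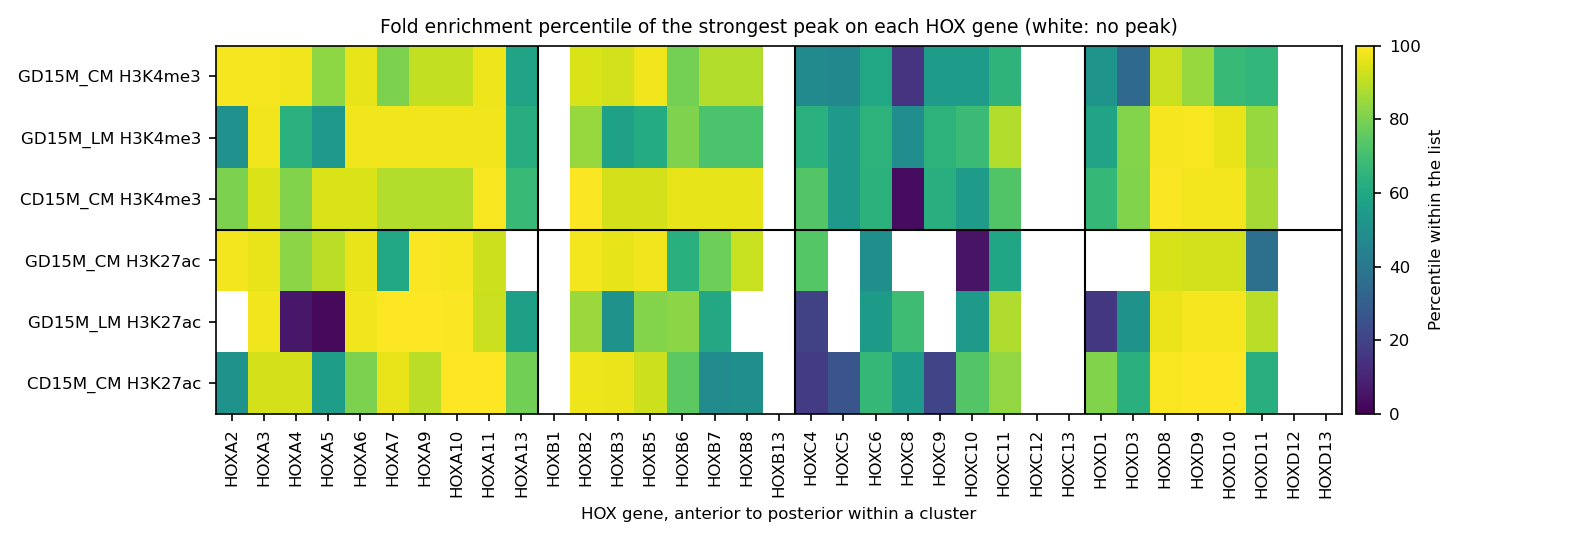
Percentile of the strongest peak on each of the 35 HOX genes (columns, anterior to posterior within a cluster) in the 6 lists (rows), on a colour scale from 0 to 100, with genes without a peak in white. HOXB1, HOXB13, HOXC12, HOXC13, HOXD12 and HOXD13 are white in all 6 rows, and further white cells are in the H3K27ac rows of GD15M_CM and GD15M_LM only.

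Paralogs differed by cluster. Of the 4 genes numbered 13, only HOXA13 had a peak, and of the genes numbered 12, HOXC12 and HOXD12, neither had. All 3 genes numbered 11 (HOXA11, HOXC11 and HOXD11) and all 3 numbered 10 had a peak in each of the 6 lists. For H3K4me3 the paralogs numbered 10 spanned percentiles from 55.1 (HOXC10) to 90.9 (HOXA10) in GD15M_CM, from 68.1 to 97.7 in GD15M_LM and from 55.1 to 98.3 in CD15M_CM. Among the genes numbered 9, HOXA9 and HOXD9 had H3K27ac in each group and HOXC9 in CD15M_CM only. HOXD1 had H3K4me3 in each group, whereas HOXB1 had none.

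Counted as neighbours in the gene table of which 1 has a peak and the other has none, the boundaries for H3K4me3 were the same 4 in each group: HOXB1 and HOXB2, HOXB8 and HOXB13, HOXC11 and HOXC12, and HOXD11 and HOXD12. At a strict threshold for peaks (10 or more in −log10 p and 5 or more in ratio to IgG) the groups differed, with 9, 7 and 6 boundaries for H3K4me3, and with 50% cover in place of a peak there were 7, 13 and 7. H3K27ac in CD15M_CM had the same 4 as H3K4me3, which counts the peaks on HOXC5 and HOXC9 that were lost with lists of equal length. H3K27ac in GD15M_CM had 10 boundaries, with those between HOXA11 and HOXA13 and between HOXD3 and HOXD8 and 4 inside HOXC added. In GD15M_LM there were 9, with those between HOXA2 and HOXA3 and 4 inside HOXC added and the posterior HOXB boundary between HOXB7 and HOXB8.

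The genes with H3K4me3 but no H3K27ac were HOXA13, HOXC5, HOXC8, HOXC9, HOXD1 and HOXD3 in GD15M_CM and HOXA2, HOXB8, HOXC5 and HOXC9 in GD15M_LM. There were 6, 4 and 0 such genes of 29 in GD15M_CM, GD15M_LM and CD15M_CM. The 0 in CD15M_CM depended on list length, since HOXC5 and HOXC9 lost their H3K27ac peaks there with lists of equal length. Among all genes with H3K4me3, 6.87%, 8.0% and 6.66% had no H3K27ac. In GD15M_CM these genes lay at the posterior end of HOXA and in HOXC and HOXD, and in GD15M_LM at HOXA2, at HOXB8 and in HOXC.

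The muscle layers of pregnancy were compared by counting genes whose percentile differed by at least 20 points, among genes with a peak in at least 1 of the lists. For H3K4me3, 5 of 29 HOX genes were higher in GD15M_CM (HOXA2, HOXA4, HOXA5, HOXB3 and HOXB5), beside 7.54% of all such genes. Another 4 were higher in GD15M_LM (HOXC8, HOXC11, HOXD3 and HOXD10), beside 8.76%. As shares of the HOX genes these were 17.2% and 13.8%. With genes extended by 3 kb on both sides, 2 of 30 (6.67%) were higher in GD15M_CM, HOXA2 and HOXA4, beside 7.46% of all genes, and 2 (6.67%) in GD15M_LM, HOXC8 and HOXC11, beside 8.44%, so that neither share was above the background. The 5 genes higher in circular muscle were in HOXA or HOXB, and the 4 higher in longitudinal muscle in HOXC or HOXD. This split was not complete under other settings, since HOXA7 was among the genes higher in GD15M_LM when peaks were ranked by −log10 p and at the strict threshold. The median difference over the HOX genes was -6.65 points (GD15M_CM minus GD15M_LM), beside 0.28 over all genes, and within clusters it was -0.85 in HOXA, 16.9 in HOXB, -13.0 in HOXC and -16.4 in HOXD.

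For H3K27ac, 6 of 27 HOX genes (22.2%) were higher in GD15M_CM than in GD15M_LM, near the background of 22.5%: HOXA2, HOXA4, HOXA5, HOXB3, HOXB8 and HOXC4. Another 7 (25.9%) were higher in GD15M_LM, beside 15.5%: HOXA7, HOXA13, HOXC8, HOXC10, HOXC11, HOXD3 and HOXD11. At the strict threshold the latter were 7 of 17 (41.2%), beside 38.9%, with 3 of them among the 7 just named. Of the 6 genes higher in GD15M_CM, 5 were in HOXA or HOXB, and of the 7 higher in GD15M_LM, 5 were in HOXC or HOXD. In cover by H3K27ac, GD15M_CM was higher for 6 of 6 marked HOXB genes and lower for 6 of 6 marked HOXD genes, and in HOXA it was higher for 5 and lower for 5 of 10. These counts of cover were not made over all genes. Over the 4 chromosomes H3K27ac covered 3.42% in GD15M_CM and 2.75% in GD15M_LM.

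Markers of another cell type moved with this comparison. All 6 uterine epithelium markers (EPCAM, CDH1, KRT8, KRT18, KRT19 and ESRP1) had an H3K27ac percentile at least 20 points higher in GD15M_CM than in GD15M_LM, and 3 of 6 for H3K4me3. Among all genes these shares were 22.5% and 7.54%. Their H3K27ac percentiles ranged from 33.7 to 84.1 in GD15M_CM, from 0 to 42.1 in GD15M_LM and from 1.94 to 84.9 in CD15M_CM, and KRT18 and KRT19 had no H3K27ac peak in GD15M_LM. The H3K27ac percentiles of the smooth muscle markers ranged from 68.6 to 97.8, from 79.0 to 98.5 and from 87.8 to 98.7. For H3K4me3 the 10 smooth muscle markers had median percentiles of 74.7, 91.0 and 88.9, with a median difference of -13.4 points for GD15M_CM minus GD15M_LM and -13.8 points for GD15M_CM minus CD15M_CM. Between the layers the H3K4me3 difference of the markers lay near those of HOXC (-13.0) and HOXD (-16.4). For H3K27ac the markers had a median difference of -4.46 points between the layers, beside -29.1 in HOXC and -10.7 in HOXD. Among markers of other cells, 2 of 5 for T cells, 0 of 5 for endothelium, 1 of 4 for fibroblasts, 1 of 3 for mesothelium and 1 of 4 for macrophages and B cells were higher in GD15M_CM by this rule for H3K27ac, and 2 of the last 4 were higher in GD15M_LM. The shares of all genes were 22.5% and 15.5%, and in lists this short 1 of 3 or 1 of 4 lies near that background. The part of epithelial cells in the differences at HOXA and HOXB, and that of muscle cells in those at HOXC and HOXD, was not tested. In a bulk tissue, fewer cells that carry a mark and less of the mark per cell cannot be told apart.

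In circular muscle, pregnancy was compared with the estrous cycle in the same way. For H3K4me3, 0 of 29 HOX genes were higher in GD15M_CM, beside 3.34% of all genes, and 4 (13.8%) were higher in CD15M_CM, beside 9.39%: HOXC4, HOXD3, HOXD10 and HOXD11. With genes extended by 3 kb the latter were 2 of 30 (6.67%), beside 8.99%. For H3K27ac, 5 of 29 (17.2%) were higher in GD15M_CM, beside 16.9%: HOXA2, HOXA5, HOXB7, HOXB8 and HOXC4. In the other direction 10 of 29 (34.5%) were higher in CD15M_CM, beside 18.7%: HOXA7, HOXA13, HOXC5, HOXC8, HOXC9, HOXC10, HOXC11, HOXD1, HOXD3 and HOXD11. Of these 10 genes, 5 were in HOXC, 3 in HOXD and 2 in HOXA. With lists of equal length 9 of 27 (33.3%) were higher in CD15M_CM, beside 20.7%, and HOXC5 and HOXC9 were not among them. At the strict threshold 6 of 16 (37.5%) were higher in CD15M_CM, beside 32.3%, and HOXA7 was the 1 gene shared with the 10, so that no HOXC gene remained.

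Cover differed by cluster as well. H3K27ac cover was higher in CD15M_CM for 6 of 7 HOXC genes and 6 of 6 HOXD genes, and higher in GD15M_CM for 6 of 6 HOXB genes. H3K4me3 cover was higher in CD15M_CM for 7 of 7 HOXC genes and for 5 of 6 HOXD genes, with HOXD11 equal. The same counts over all genes were not computed. Over the 4 chromosomes CD15M_CM also had more cover than GD15M_CM, with 3.83% against 3.42% for H3K27ac and 2.89% against 2.46% for H3K4me3. The HOXA13 call among the 10 rests on the overlap of 7 bases described for that gene. For the epithelium markers, 3 of 6 had an H3K27ac percentile at least 20 points higher in GD15M_CM and 1 in CD15M_CM, beside 16.9% and 18.7% of all genes. The part of these markers in the HOX values was not tested. Both comparisons use the GD15M_CM lists, so that a low or high value in GD15M_CM enters both.

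**Figure D4:**
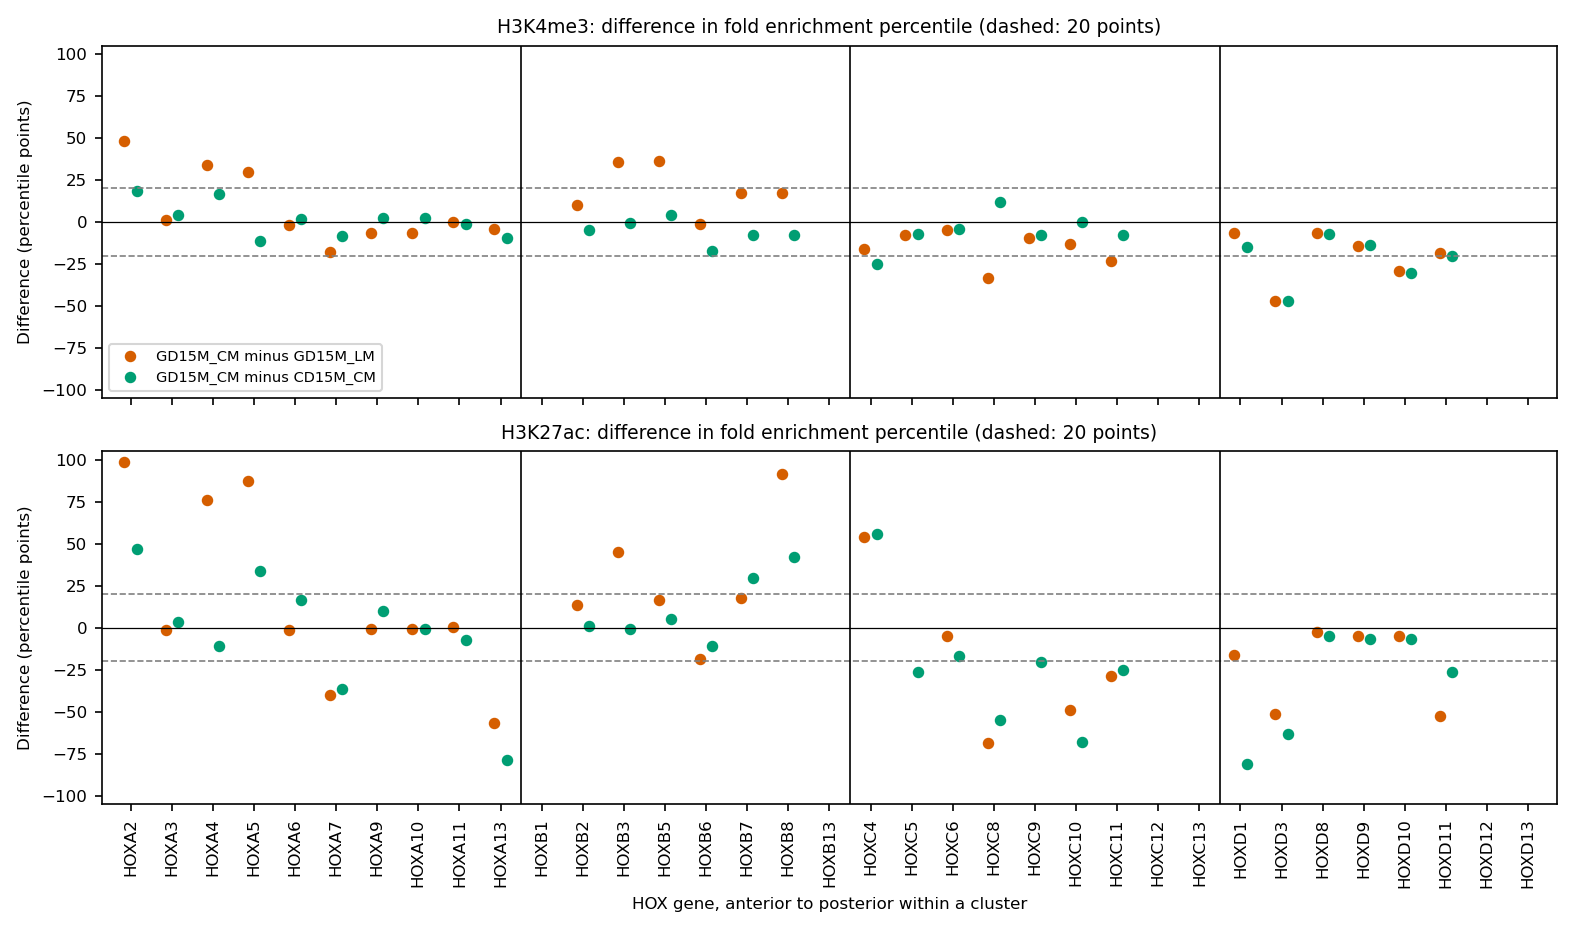
Difference in percentile (vertical axis, in points) of GD15M_CM minus GD15M_LM (orange) and of GD15M_CM minus CD15M_CM (green) for each HOX gene with a peak in either list (horizontal axis), with H3K4me3 above and H3K27ac below; dashed lines mark 20 points. Orange points above the upper line are in HOXA and HOXB with HOXC4 for H3K27ac added, and points below the lower line are mostly in HOXC and HOXD; both colours share GD15M_CM.

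Other genes inside the windows were marked by where they lay. The windows held 23 annotated genes that are no HOX genes, among them 12 long non-coding RNA genes and 5 microRNA genes. MIR10A, a microRNA gene in HOXB, was under H3K4me3 in GD15M_CM (percentile 97.9) and CD15M_CM (93.5) and under no peak in GD15M_LM. MIR615, within HOXC5, was under H3K4me3 in each group, with percentiles of 46.6, 54.2 and 54.1. Neither was under H3K27ac, and MIR10B, MIR196A-1 and MIR196A-2 were under no peak in any list. The long non-coding RNA gene LOC102160006, between HOXA13 and HOXA11, was covered over 100% by H3K4me3 in each group and over 81.2%, 96.3% and 100% by H3K27ac.

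Genes that act with or on HOX genes were counted as lists. Among all genes, 57.1%, 58.2% and 58.9% had H3K4me3 and 58.7%, 57.4% and 60.7% had H3K27ac. Between the layers, 7.54% of all genes were higher in GD15M_CM and 8.76% in GD15M_LM for H3K4me3. For H3K27ac these shares were 22.5% and 15.5%. The share of all genes that differed in either mark was not computed. Of the 9 cofactors of the PBX, MEIS and PKNOX families, which bind DNA together with HOX proteins, 8 had H3K4me3 in each group, and between the layers MEIS2 was at least 20 points higher in GD15M_LM for H3K4me3 and PBX3 in GD15M_CM for H3K27ac. All 14 Polycomb genes, whose products keep HOX genes silent, and all 9 Trithorax and H3K27 demethylase genes, whose products oppose them, had both marks in each group. By the same rule EED was higher in GD15M_CM than in GD15M_LM for both marks, CBX7 was higher in GD15M_CM and EZH1 in GD15M_LM for H3K27ac, and the remaining 11 Polycomb genes passed in neither mark. In the Trithorax list MEN1 was higher in GD15M_CM for both marks and KDM6B for H3K27ac. Of 12 genes of retinoic acid synthesis, breakdown and reception, 10 were in the gene table, and 8, 9 and 8 of them had H3K4me3 in GD15M_CM, GD15M_LM and CD15M_CM. Between the layers 4 of the 10 differed by this rule: RXRG was higher in GD15M_LM for H3K4me3, and for H3K27ac RXRA and RARB were higher in GD15M_CM and ALDH1A2 in GD15M_LM. Of 9 homeobox relatives of HOX genes (CDX, GSX, PDX, EVX and MNX), 1 had H3K4me3, which was MNX1 in each group.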

How the data were processed

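CUT&Tag libraries of H3K4me3, H3K27ac and IgG from 3 groups of myometrium (n = 2 gilts each) were analysed. The authors mapped the reads to Sscrofa11.1 with BWA 0.7.17-r1188, removed duplicates and poorly mapped reads with SAMtools 1.9 and Picard 2.8.3, pooled the gilts of a group and called peaks against IgG with MACS2 2.2.6. The deposited fold enrichment is the ratio of mark to IgG in a peak. How the libraries were scaled to each other is not given in the sources used here, so ranks within a list were compared and not the ratios. A deposited column whose header could not be read was taken as the −log10 p-value of a peak and used in alternatives only, that is, in the strict threshold and the ranking by −log10 p.

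From the lists, the overlap with RefSeq gene bodies (at least 1 base), the cover and the percentile by fold enrichment were computed with Python 3.11.15. A percentile difference of at least 20 points was counted and read against all genes with a peak in either list. Without replicate values no test was run. The code was tested on simulated data. Named genes were those beside a boundary, those counted as different, the 3 highest by percentile and by cover in each mark, and the genes numbered 9 to 13. The members and lists were chosen with earlier results of these data known. Strand and DNA sequence were not used here. One HOX gene is not reported here and enters no count of HOX genes.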

Additional observations from a re-analysis of the deposited data

How the results depend on the processing

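No paired analysis was possible because the replicates were pooled before peaks were called, no gilt was left out, no replicate block was fitted, and differences between lists have no error. The alternative with a window at gene starts and the sequence features were not run, since strand and sequence were not used here. Read depth behind a peak is unknown, and 95% binomial intervals on covered bases, used to judge cover, cover counting of bases only. Neighbouring bases under a peak are not independent, so these intervals are too narrow and measure no spread between gilts.

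With at least 10 in −log10 p and 5 in fold enrichment, H3K27ac remained on 14, 12 and 12 HOX genes in GD15M_CM, GD15M_LM and CD15M_CM. With at least 50% of the body covered, H3K4me3 was on 19, 18 and 19, and H3K27ac on 8 in GD15M_LM and 15 in CD15M_CM. All other counts of HOX genes with a peak stayed within 1.5 times.

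Cover of the windows by H3K4me3 in GD15M_CM, GD15M_LM and CD15M_CM was 35.4%, 33.3% and 41.5% at the strict threshold, 42.1%, 37.8% and 46.7% with peaks less than 1 kb apart joined, and 44.8%, 41.2% and 51.0% without flanks. For H3K27ac it was 17.4%, 12.2% and 12.4%, 34.7%, 23.9% and 37.1%, and 35.2%, 23.5% and 37.0%. With lists of equal length it was 38.8% and 44.0% for H3K4me3 and 29.5% and 29.8% for H3K27ac in GD15M_CM and CD15M_CM. GD15M_LM stayed lowest for both marks in each of these, and the order of the circular muscle lists for H3K27ac turned at the strict threshold.

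With genes extended by 3 kb, the median H3K27ac percentile was 82.5 in GD15M_LM. Boundaries at the strict threshold numbered 9 and 7 for H3K4me3 in GD15M_CM and GD15M_LM and 8 for H3K27ac in CD15M_CM. With 50% cover they numbered 7, 13 and 7 for H3K4me3 and 5, 4 and 8 for H3K27ac.

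Between the layers, H3K4me3 was higher in GD15M_CM for 2 HOX genes with genes extended by 3 kb (6.67%, beside 7.46% of all genes), and higher in GD15M_LM for 2 extended (6.67%, beside 8.44%) and 9 strict (32.1%, beside 21%). Between pregnancy and cycle it was higher in GD15M_CM for 1 with lists of equal length (3.45%, beside 5.09%) and 2 at the strict threshold (7.14%, beside 14.1%), and higher in CD15M_CM for 2 ranked by −log10 p (6.90%, beside 6%), 2 extended (6.67%, beside 8.99%) and 8 strict (28.6%, beside 19.1%). H3K27ac was higher in CD15M_CM for 6 at the strict threshold (37.5%, beside 32.3%). Over single genes, 41 differences of at least 20 points were found, of which 38 passed with equal lists, 37 ranked by −log10 p, 23 extended and 21 at the strict threshold. With genes extended, 1 changed sign, HOXA13 for H3K27ac (GD15M_CM minus CD15M_CM), to 12.7 points. In each of the 8 counts HOXA3 and HOXD9 contributed no gene, an alternative chosen after seeing the data.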
